A study of Mus musculus with 12 samples.

Results

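Cell cycle and DNA replication genes were followed across 6 groups of mouse macrophages. The set was a list of 46 genes with known roles in DNA replication, nucleotide supply, entry into S phase and mitosis. The list was chosen with earlier results of these data known. The brightest probe set of each gene was taken, and 45 of the 46 genes had a probe set of their own among the 19938 genes tested; Ccnb1 was not analysed here. For the 3 genes with several probe sets (Pcna, Tk1 and Top2a) the brightest was taken as well, and the choice used mean signal only, not any difference between groups.

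All macrophages came from the peritoneal cavity of C57BL/6 mice given thioglycollate, an irritant that draws monocyte-derived macrophages there. The groups were macrophages of mice on a high-fat diet given red blood cells (RBC) of high-fat-fed mice, RBC of chow-fed mice or no RBC, and macrophages of chow-fed mice given RBC of high-fat-fed mice, RBC of chow-fed mice or no RBC. Feeding began at 6 weeks of age and lasted 12 weeks, and the labels name no genetic change in any group. Each group had 2 arrays, 12 in all, numbered in the labels as separate animals, so p-values measure the spread between these arrays whose number limits the precision. Below, "high-fat macrophages" and "chow macrophages" name the diet of the macrophage donor, "exposed" means given RBC of either kind, and values are log2 signals as deposited.

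A cell that divides first licenses its replication origins in G1 phase, when Cdc6 and Cdt1 load the Mcm helicase onto DNA. In S phase the helicase opens the DNA, the clamp Pcna holds the polymerases, and ribonucleotide reductase (Rrm1, Rrm2), thymidylate synthase (Tyms) and thymidine kinase (Tk1) supply the building blocks. Mitosis then depends on cyclin-dependent kinase Cdk1 with cyclins A and B, on the kinases Plk1, Aurka and Aurkb, on the spindle checkpoint at the kinetochore and on motor proteins of the spindle. Most replication genes are driven by E2F factors, and many mitosis genes by the MuvB complexes with B-Myb and Foxm1, which act at a promoter element called CHR, often next to CCAAT boxes bound by NF-Y. Mature macrophages are largely outside the cycle, but can divide in tissue under the growth factor Csf1.

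The promoters of the set show this division in their letters. RefSeq promoter windows (build GRCm38.p6, 250 bases before to 50 after the annotated start) were at hand for 37 of the 45 genes; Foxm1, Mcm4, Ccna2, Kif20a, Aurkb, Tpx2, Gins1 and Ccne2 had none. Only the first listed window of each gene was searched, so any other start of a gene was left out. On both strands, the CHR letters TTTGAA or TTCGAA lay in 18 of 23 windows of mitosis genes (78.3%). They lay in 2 of 12 windows of replication and nucleotide genes (16.7%) and in 19.4% of all 27025 windows searched, 1 per gene. The E2F letters TTTCCCGC, TTTGGCGC, TTTCGCGC or TTCCCGCC lay in 1 of 23 windows of mitosis genes (4.35%, Cdk1), in 7 of 12 of replication and nucleotide genes (58.3%) and in 3.57% of all windows. CCAAT lay in 17 of 23 (73.9%), 8 of 12 (66.7%) and 37.9%. The sequences below are the 160 bases before the start of 8 of these genes, 5′ to 3′ on the strand of the gene, with each match on either strand in capitals and neighbouring E2F matches that overlap run together. Cdk1, Top2a and Ube2c are mitosis genes that rose with RBC in chow macrophages, and Cdc20 and Mki67 are mitosis genes that did not pass there. Mcm6 and Rrm1 are replication genes that rose, and Mcm5 is a replication gene that did not pass.
Cdk1: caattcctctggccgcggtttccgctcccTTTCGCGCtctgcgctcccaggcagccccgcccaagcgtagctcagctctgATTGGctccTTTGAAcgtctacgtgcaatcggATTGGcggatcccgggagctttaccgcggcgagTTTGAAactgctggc
Top2a: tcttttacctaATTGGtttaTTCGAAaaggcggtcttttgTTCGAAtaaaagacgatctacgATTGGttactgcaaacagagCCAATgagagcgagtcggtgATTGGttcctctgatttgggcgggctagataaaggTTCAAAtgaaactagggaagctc
Ube2c: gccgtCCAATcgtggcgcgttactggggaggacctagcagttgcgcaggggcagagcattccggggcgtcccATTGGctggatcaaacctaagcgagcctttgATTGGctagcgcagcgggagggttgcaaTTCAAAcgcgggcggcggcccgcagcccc
Cdc20: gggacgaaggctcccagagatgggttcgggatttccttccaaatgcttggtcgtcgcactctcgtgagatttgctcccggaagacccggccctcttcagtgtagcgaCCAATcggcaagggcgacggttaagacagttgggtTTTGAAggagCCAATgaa
Mki67: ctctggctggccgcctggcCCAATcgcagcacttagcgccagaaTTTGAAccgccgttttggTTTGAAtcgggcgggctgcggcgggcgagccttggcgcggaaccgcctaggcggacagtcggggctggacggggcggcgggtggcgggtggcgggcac
Mcm6: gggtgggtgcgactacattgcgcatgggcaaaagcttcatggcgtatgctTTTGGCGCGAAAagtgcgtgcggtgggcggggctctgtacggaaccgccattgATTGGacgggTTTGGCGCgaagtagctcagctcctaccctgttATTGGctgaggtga
Rrm1: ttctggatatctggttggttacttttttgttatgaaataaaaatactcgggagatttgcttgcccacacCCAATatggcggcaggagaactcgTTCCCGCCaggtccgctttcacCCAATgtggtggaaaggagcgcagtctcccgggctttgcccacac
Mcm5: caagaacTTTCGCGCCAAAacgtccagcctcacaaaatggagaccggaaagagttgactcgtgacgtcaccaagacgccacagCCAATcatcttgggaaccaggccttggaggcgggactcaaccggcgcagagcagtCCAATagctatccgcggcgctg
They stand at chr10:69352913-69353072 (minus strand, Cdk1), chr11:99024190-99024349 (minus strand, Top2a), chr2:164769769-164769928 (plus strand, Ube2c), chr4:118437344-118437503 (minus strand, Cdc20), chr7:135716380-135716539 (minus strand, Mki67), chr1:128359706-128359865 (minus strand, Mcm6), chr7:102441535-102441694 (plus strand, Rrm1) and chr8:75109349-75109508 (plus strand, Mcm5). The Cdk1 window holds the E2F letters as well as CHR and CCAAT. The windows of Cdc20 and Mki67 hold the same mitotic letters as those of Cdk1, Top2a and Ube2c, and the Mcm5 window holds the E2F letters as that of Mcm6 does. Among mitosis genes, CHR letters lay in 14 of 19 windows of genes that rose with RBC in chow macrophages (73.7%) and in 4 of 4 of those that did not pass. Among replication and nucleotide genes, E2F letters lay in 3 of 6 windows (50%) of those that rose and in 4 of 6 (66.7%) of those that did not. A match is a description of the letters in this window, not of a bound site.

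**Figure D1:**
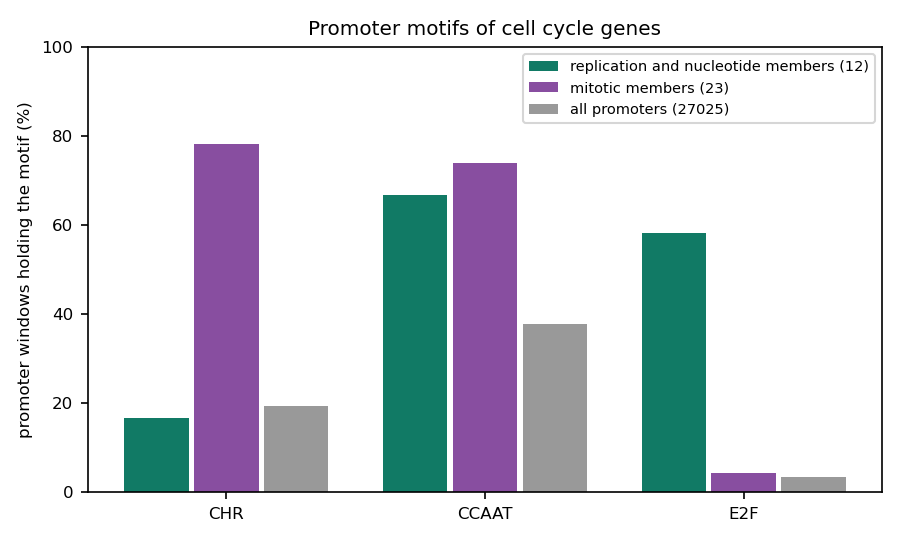
Share of RefSeq promoter windows (y axis, percent) that hold CHR, CCAAT or E2F letters, for 12 replication and nucleotide genes, 23 mitosis genes and all 27025 windows. CHR letters are at 78.3% in mitosis genes and E2F letters at 58.3% in replication and nucleotide genes.

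All arrays had signal for macrophage markers: Cd68, a lysosomal glycoprotein of macrophages, lay between 12.09 and 12.21 on the 12 arrays, and the F4/80 gene Adgre1 between 8.92 and 10.21. Pairwise correlations between arrays over all genes lay between 0.982 and 0.997, and no 2 arrays were identical. No array of a pair lay wholly above its partner for the set: the second array of a pair was the higher for 21 to 32 of the 45 genes, the most in chow macrophages given high-fat RBC. No detection calls were analysed here, so a signal near background cannot be told from absence. In bulk samples, fewer dividing cells and less RNA per cell cannot be told apart.

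The set had 1 low group. In unexposed chow macrophages 37 of the 45 genes had their lowest group mean, and for 33 genes both arrays of that group lay below all 10 other arrays, against 12.1% of all genes; for 0 genes did both lie above all 10 others, against 8.9% of all genes. Over the set, the median distance of that group's mean below the mean of the other 5 groups was 0.44, and the median spread of those 5 means, from lowest to highest, was 0.22. The distance exceeded the spread for 34 genes. The counts of 37 and 34 genes were not computed over all genes, so only the 33 can be set beside a share. The comparisons of RBC with none in chow macrophages, of high-fat with chow macrophages without RBC, and of the 2 responses with each other all use the same 2 unexposed chow arrays, so they are not independent of each other, and their values are given side by side.

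**Figure D2:**
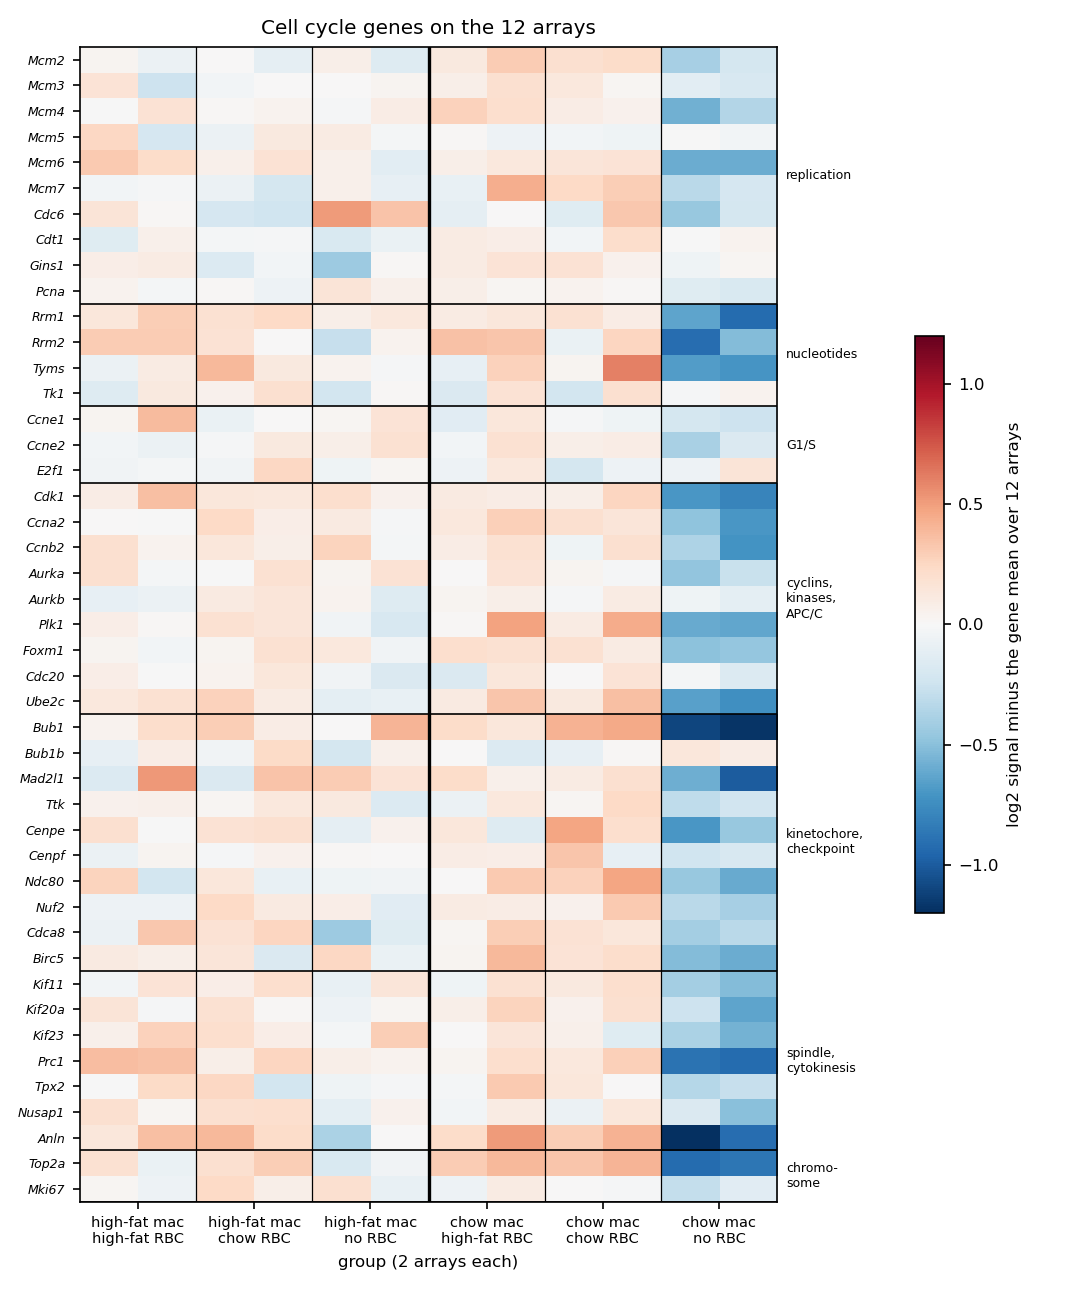
Heat map of the 45 genes (rows, by role) on the 12 arrays (columns, by group), coloured by log2 signal minus the mean of the gene over all arrays. The 2 columns of unexposed chow macrophages at the right are blue for most rows, while Mcm5, Cdt1, Gins1, Tk1, E2f1, Aurkb, Cdc20 and Bub1b, whose lowest mean is in another group, show little or no such drop.

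What RBC did to these genes in chow macrophages was asked with the 4 exposed against the 2 unexposed arrays. With RBC, 31 of 45 genes rose and 0 fell at an adjusted p below 0.05 (limma with Benjamini-Hochberg adjustment over all genes, as for every adjusted p here), against 8.22% of all genes higher and 4.51% lower. The median log2 difference was 0.51 over the set and -0.03 over all genes. The genes that rose reached from DNA replication to the last steps of cell division, and the largest differences belonged to the mitosis genes Bub1 and Anln. The exposed arrays lay above both unexposed arrays for 39 genes and below both for 1 (Bub1b), against 20.2% and 20.6% of all genes.

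Among the 10 genes of origin licensing and the replication fork, 4 rose and 6 did not pass. Mcm6, a subunit of the helicase, read 6.88 and 6.94 with high-fat RBC and 6.96 and 6.97 with chow RBC, against 6.21 and 6.21 without RBC. All 4 exposed arrays lay far above the unexposed pair, a difference of 0.72 ± 0.09 (SE; adjusted p = 7.4e-05, 1.65-fold). Mcm4, another subunit, rose by 0.62 ± 0.09, Mcm2 by 0.51 ± 0.10 and Mcm7 by 0.48 ± 0.12. The subunits Mcm3 and Mcm5 of the same ring did not pass: Mcm3 was at 0.26 ± 0.11 and Mcm5 at -0.01 ± 0.11. Mcm5 read 5.67 and 5.60 with high-fat RBC and 5.62 and 5.60 with chow RBC, against 5.65 and 5.62 without RBC, so its groups overlapped. The loaders Cdc6 (0.35 ± 0.12, adjusted p = 0.077) and Cdt1 (0.07 ± 0.09), the helicase partner Gins1 (0.13 ± 0.11) and the clamp Pcna (0.20 ± 0.08, adjusted p = 0.11) did not pass either. Pcna read 10.90 and 10.86 with high-fat RBC and 10.87 and 10.85 with chow RBC, against 10.68 and 10.65 without RBC. Its groups did not overlap, and its second probe set gave 0.21.

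Of the 4 genes that supply nucleotides, 3 rose. Rrm1, the large subunit of ribonucleotide reductase, read 7.31 and 7.35 with high-fat RBC and 7.40 and 7.30 with chow RBC, against 6.58 and 6.29 without RBC. The difference was 0.90 ± 0.10 (adjusted p = 2.7e-05, 1.87-fold). Rrm2, the small subunit of the same enzyme, rose by 0.93 ± 0.13 and Tyms, which makes thymidylate, by 0.89 ± 0.15. The exposed arrays were uneven for Tyms, at 5.82 and 6.20 with high-fat RBC and 5.95 and 6.52 with chow RBC, against 5.26 and 5.21 without RBC. Tk1, which salvages thymidine, was at -0.02 ± 0.13, and its second probe set at -0.07. Among the 3 genes of the G1 to S transition, cyclin E2 (Ccne2) rose by 0.36 ± 0.10 (adjusted p = 0.024), while Ccne1 (0.21 ± 0.11) and the transcription factor E2f1 (-0.10 ± 0.10) did not pass.

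Of the 9 measured mitotic cyclins, kinases and regulators of the anaphase-promoting complex, 7 rose. Cdk1, the kinase that drives entry into mitosis, read 6.41 and 6.39 with high-fat RBC and 6.38 and 6.56 with chow RBC, against 5.60 and 5.51 without RBC. The groups were far apart, with a difference of 0.88 ± 0.10 (adjusted p = 4.2e-05, 1.84-fold). Its partners cyclin A2 (Ccna2) and cyclin B2 (Ccnb2) rose by 0.77 ± 0.09 and 0.65 ± 0.12. Ube2c, the ubiquitin-conjugating enzyme of the anaphase-promoting complex, rose by 0.92 ± 0.10. Plk1, a kinase of spindle assembly and mitotic exit, rose by 0.87 ± 0.13, the transcription factor Foxm1 by 0.64 ± 0.09 and the centrosome kinase Aurka by 0.42 ± 0.10. Aurkb, the kinase of the chromosomal passenger complex (0.13 ± 0.09), and Cdc20, an activator of the anaphase-promoting complex (0.12 ± 0.10), did not pass.

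Of 10 kinetochore and checkpoint genes 8 rose. Bub1, a checkpoint kinase at the kinetochore, read 4.89 and 4.80 with high-fat RBC and 5.08 and 5.12 with chow RBC, against 3.56 and 3.49 without RBC. This was a difference of 1.44 ± 0.11 (adjusted p = 1.5e-06, 2.72-fold). Mad2l1, the checkpoint protein Mad2, rose by 0.94 ± 0.18. The outer kinetochore subunits Ndc80 and Nuf2 rose by 0.79 ± 0.13 and 0.50 ± 0.10, and the kinetochore motor Cenpe by 0.74 ± 0.12. The passenger complex subunits Birc5 (survivin) and Cdca8 (borealin) rose by 0.76 ± 0.12 and 0.52 ± 0.12, and the checkpoint kinase Ttk by 0.35 ± 0.10. Bub1b, the checkpoint protein BubR1, was at -0.17 ± 0.11 (adjusted p = 0.34): it read 5.32 and 5.16 with high-fat RBC and 5.23 and 5.33 with chow RBC, against 5.45 and 5.41 without RBC. Cenpf was at 0.31 ± 0.11 (adjusted p = 0.066).

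The 7 genes of the spindle and of cytokinesis all rose. Anln, the anillin that scaffolds the contractile ring, read 6.06 and 6.34 with high-fat RBC and 6.12 and 6.25 with chow RBC, against 4.58 and 4.91 without RBC. The difference was 1.44 ± 0.13 (adjusted p = 7.4e-06, 2.72-fold). Prc1, which bundles microtubules of the central spindle, rose by 1.06 ± 0.09. The kinesin motors Kif11, Kif20a and Kif23 rose by 0.58 ± 0.10, 0.59 ± 0.11 and 0.49 ± 0.11, and the spindle assembly factors Tpx2 and Nusap1 by 0.42 ± 0.13 and 0.37 ± 0.11. Top2a, the topoisomerase that untangles chromosomes, read 6.28 and 6.37 with high-fat RBC and 6.31 and 6.38 with chow RBC, against 5.05 and 5.11 without RBC. Its difference was 1.25 ± 0.09 (adjusted p = 1.1e-06, 2.38-fold), while its dimmer second probe set gave 0.26. Mki67, the gene of the proliferation marker Ki-67, was at 0.22 ± 0.10 (adjusted p = 0.17).

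Each kind of RBC gave the same count when taken alone: 26 of 45 genes rose with high-fat RBC and 26 with chow RBC, and 0 fell with either, against 5.41% and 6.23% of all genes higher, 2.93% and 2.94% lower and 8.34% and 9.18% in either direction. With each array left out in turn, 18 of the 31 calls for both kinds together were kept in every omission and the other 13 were lost at least once: Mcm2, Mcm7, Ccne2, Ccnb2, Aurka, Mad2l1, Ttk, Nuf2, Cdca8, Kif20a, Kif23, Tpx2 and Nusap1. Each of these 13 was lost without at least 1 of the 2 unexposed chow arrays, and some were also lost without other arrays. Leaving out an unexposed chow array leaves 1 in that group. Calls over all genes dropped as well when either unexposed chow array was left out. The cause of the losses was not tested. Nusap1 was at 0.21 without replicate 2 of the unexposed chow arrays. Leaving out arrays of high-fat macrophages cost at most 2 calls each, of Ttk, Tpx2 and Nusap1. For high-fat RBC alone the count was lowest without replicate 2 of the high-fat RBC group. For chow RBC alone it was lowest without replicate 2 of the unexposed chow arrays. Calls over all genes dropped in both cases.

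**Figure D3:**
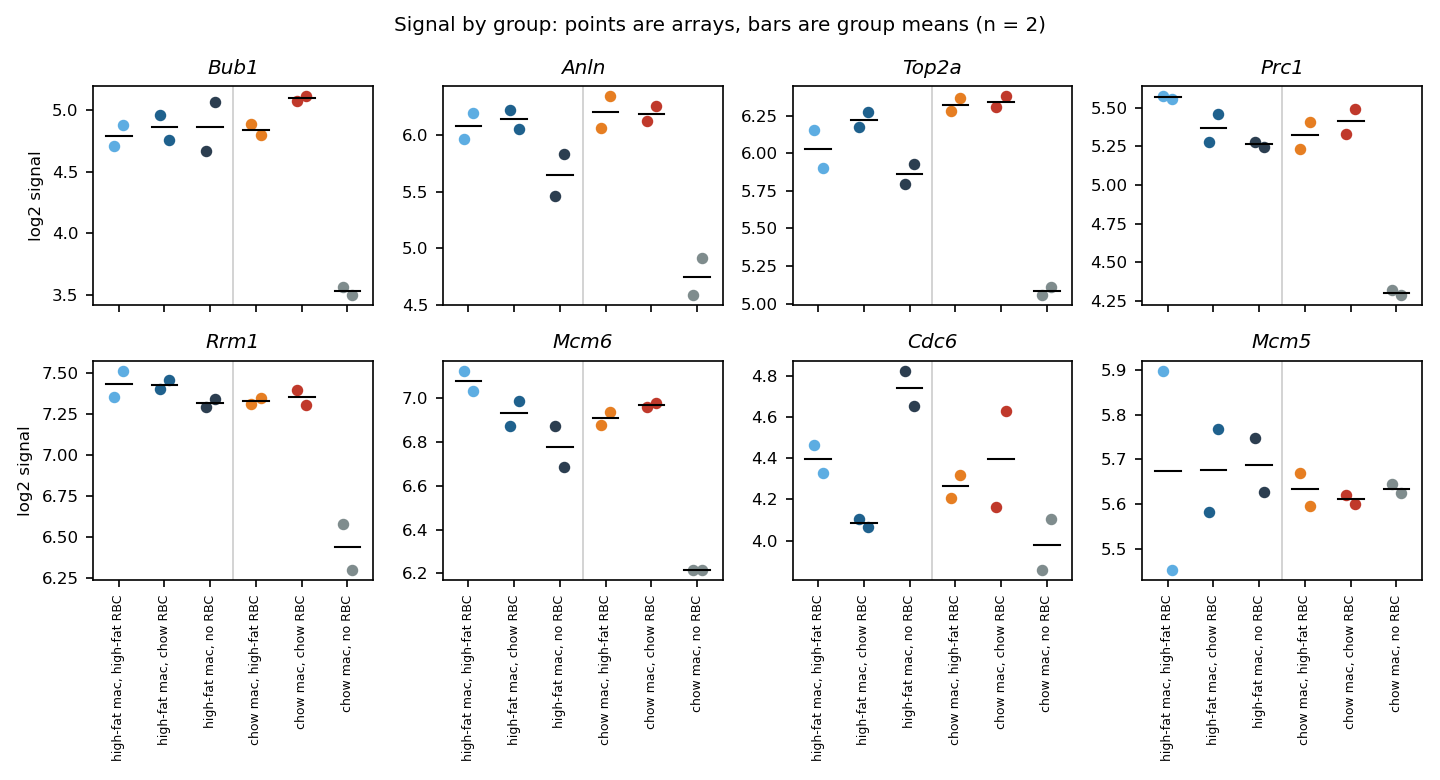
Log2 signal (y axis) of 8 of the genes in the 6 groups (x axis); points are arrays and bars are group means (n = 2). Unexposed chow macrophages lie lowest for Bub1, Anln, Top2a, Prc1, Rrm1 and Mcm6, Cdc6 is highest in unexposed high-fat macrophages, and the groups overlap for Mcm5.

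In high-fat macrophages the same limma comparison called 0 of 45 genes, against 0.878% of all genes higher and 0.201% lower. With shares this small, 0 calls among 45 genes do not show that the set was unchanged. By unadjusted p below 0.05, 7 genes were higher and 1 lower, against 10.8% of all genes in either direction. The median was 0.08 over the set and -0.003 over all genes, and 32 of the 45 differences were positive and 13 negative. Bub1 read 4.71 and 4.88 with high-fat RBC and 4.96 and 4.76 with chow RBC, against 4.67 and 5.07 without RBC, so its groups overlapped (-0.04 ± 0.11, 95% interval -0.28 to 0.20). Cdk1 read 6.39 and 6.66 with high-fat RBC and 6.44 and 6.43 with chow RBC, against 6.50 and 6.35 without RBC, which overlapped too (0.05 ± 0.10, interval -0.16 to 0.26). Rrm1 was at 0.11 ± 0.10 and Foxm1 at 0.01 ± 0.09.

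The estimates furthest from 0 in high-fat macrophages were Cdc6, Cdca8 and Anln. Cdc6 was at -0.50 ± 0.12 (adjusted p = 0.081): it read 4.46 and 4.33 with high-fat RBC and 4.11 and 4.07 with chow RBC, against 4.82 and 4.65 without RBC, so all 4 exposed arrays lay below the unexposed pair. Cdca8 was at 0.46 ± 0.12 (adjusted p = 0.11) and Anln at 0.46 ± 0.13 (adjusted p = 0.16). Anln read 5.96 and 6.19 with high-fat RBC and 6.22 and 6.05 with chow RBC, against 5.46 and 5.83 without RBC. Exposed arrays lay above both unexposed arrays for 8 genes (Mcm6, Rrm1, Plk1, Cdc20, Ube2c, Cdca8, Prc1 and Anln) and below both for 2 (Cdc6 and Pcna), against 8.87% and 8% of all genes. With high-fat RBC alone 0 genes were called (limma; 0.752% of all genes in either direction, 0.647% higher and 0.105% lower; smallest adjusted p 0.31, for Mcm6), with 8 at an unadjusted p below 0.05, against 8.73% of all genes. With chow RBC alone 0 were called too (limma; 0.647% of all genes in either direction, 0.557% higher and 0.0903% lower; smallest adjusted p 0.058, for Cdc6), with 5 at an unadjusted p below 0.05, against 9.65% of all genes. Without replicate 2 of the unexposed high-fat arrays 3 genes were higher (Gins1, Cdca8 and Anln), while the share of all genes called in either direction was 3.27%, against 1.08% with that array. Without either array of chow macrophages given chow RBC, Cdc6 was lower (0.963% of all genes called), and without replicate 1 of high-fat macrophages given high-fat RBC, Cdca8 was higher (0.988%).

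**Figure D4:**
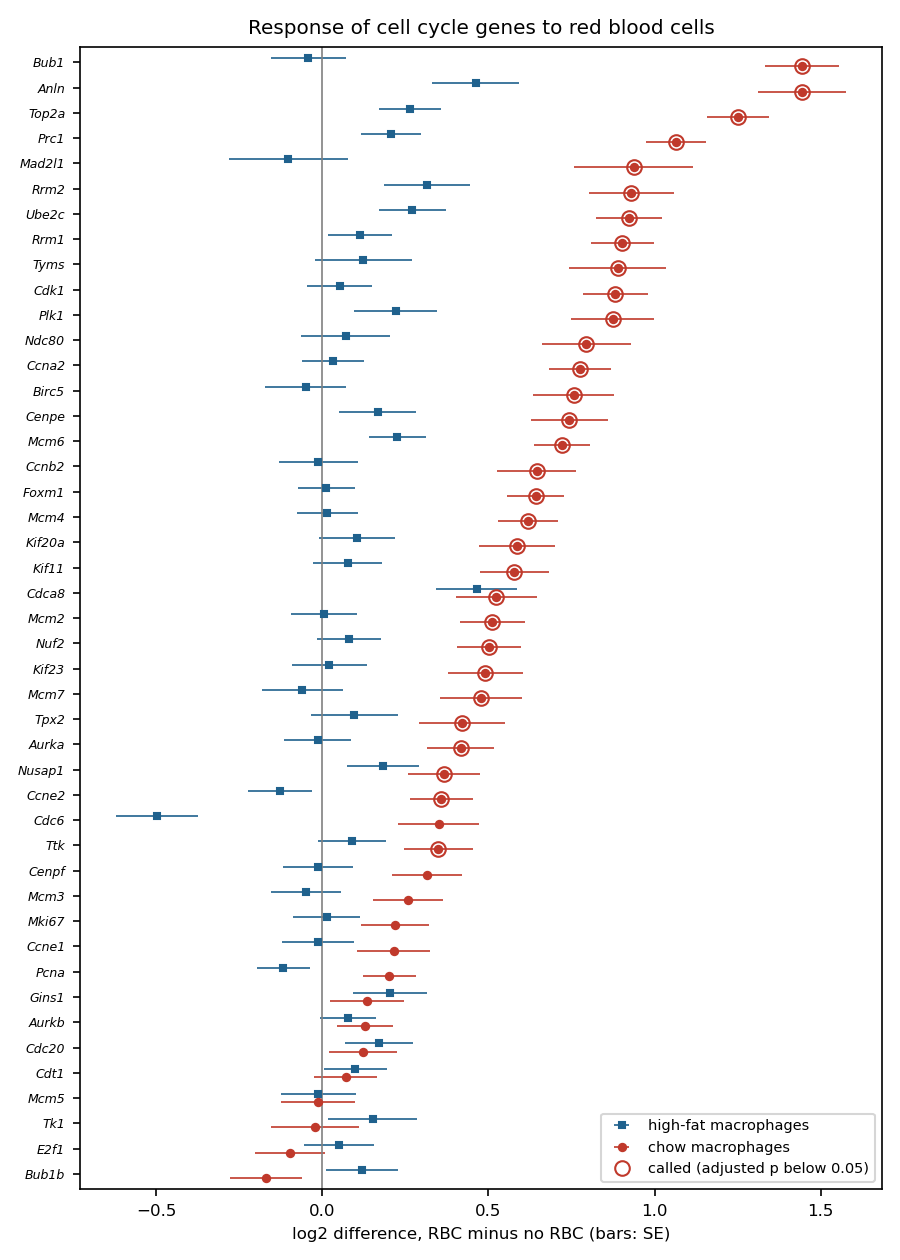
Log2 difference of exposed minus unexposed arrays (x axis, bars ± SE) for the 45 genes (rows, ordered by the response of chow macrophages), in high-fat macrophages (blue squares) and chow macrophages (red dots, ringed where the adjusted p is below 0.05). The 31 ringed genes lie right of 0, while the squares scatter between -0.50 and 0.46.

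Whether the 2 responses differed was tested with the interaction, the response of high-fat macrophages minus that of chow macrophages. It was negative and passed for 18 of 45 genes and positive for 0, against 3.1% of all genes lower and 2.57% higher, and its median was -0.50 over the set and 0.02 over all genes. For Bub1 the interaction was -1.49 ± 0.16 (adjusted p = 6.5e-05), for Top2a -0.99 ± 0.13 (adjusted p = 0.00043) and for Prc1 -0.86 ± 0.13 (adjusted p = 0.001). The dimmer second Top2a probe set gave -0.55. Its response in high-fat macrophages was -0.29, opposite in sign to the 0.26 of the brightest. Mad2l1 was at -1.04 ± 0.25, Anln at -0.98 ± 0.19, Cdc6 at -0.85 ± 0.17, Cdk1 at -0.83 ± 0.14, Birc5 at -0.81 ± 0.17 and Rrm1 at -0.79 ± 0.13. Of the 18, Cdc6 alone passed in neither diet by itself; its responses were -0.50 in high-fat and 0.35 in chow macrophages. The other 9 that passed were Mcm4, Mcm6, Tyms, Ccna2, Ccnb2, Plk1, Foxm1, Ube2c and Ndc80. Of the rest, Cdca8 had nearly the same value in both diets, 0.46 ± 0.12 in high-fat and 0.52 ± 0.12 in chow macrophages (interaction -0.06, 95% interval -0.43 to 0.31). In every omission of an array 8 of the 18 were kept (Rrm1, Cdk1, Ccna2, Foxm1, Bub1, Prc1, Anln and Top2a). The other 10 were lost in at least 1 omission, 8 of them without replicate 2 of the unexposed chow arrays, 7 without replicate 1 of the unexposed high-fat arrays, 6 without replicate 1 of the unexposed chow arrays and 2 to 5 without each other array. Without the first of these, which leaves 1 array in its group, calls over all genes dropped too, and Rrm2 was at -0.81.

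Macrophages of the 2 diets were then compared without RBC. High-fat macrophages were higher than chow macrophages for 24 of 45 genes and lower for 0, against 8.12% of all genes higher and 5.82% lower, with a median of 0.47 over the set. Bub1 read 4.67 and 5.07 in high-fat macrophages, against 3.56 and 3.49 in chow macrophages, a difference of 1.34 ± 0.13 (adjusted p = 5.7e-06). Mad2l1 read 6.43 and 6.28, against 5.53 and 5.12 in chow macrophages (1.03 ± 0.21). Prc1 was higher by 0.96 ± 0.10, Anln by 0.90 ± 0.15, Rrm1 by 0.88 ± 0.11, Cdk1 by 0.87 ± 0.11 and Top2a by 0.78 ± 0.11. The second Top2a probe set gave 0.58. Cdc6 was higher by 0.76 ± 0.14 (adjusted p = 0.0021), at 4.82 and 4.65 in high-fat macrophages against 3.86 and 4.10 in chow macrophages. Of 10 licensing and fork genes 3 rose (Mcm4, Mcm6 and Cdc6), of 4 nucleotide genes 3, of 9 mitotic cyclins, kinases and regulators 7, of 10 kinetochore genes 4 and of 7 spindle genes 5. Cdt1 (-0.15 ± 0.11), Gins1 (-0.20 ± 0.13) and Cdca8 (0.07 ± 0.14) did not pass. Both high-fat arrays lay above both chow arrays for 36 genes and below for 2, against 24.4% of all genes in each direction. With single arrays left out 11 of the 24 calls were kept in every omission (Mcm6, Cdc6, Rrm1, Cdk1, Ccna2, Foxm1, Ube2c, Bub1, Prc1, Anln and Top2a). Each of the other calls was lost without at least 1 unexposed array, which leaves 1 array in its group. Calls over all genes dropped in these omissions too. Each exposed array cost the call of Kif20a. Without replicate 2 of the high-fat pair 17 genes were higher and 1 lower, Gins1 (-0.42, adjusted p = 0.028 in limma).

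With RBC, the 4 high-fat and the 4 chow arrays differed for 0 of 45 genes, against 2.2% of all genes higher, 2.65% lower and 4.85% in either direction (limma; 4 genes, all lower, at an unadjusted p below 0.05, against 16.4% of all genes). High-fat arrays lay above all chow arrays for 0 genes and below all for 2, against 6.52% and 6.77% of all genes. The median was -0.05, and the estimates lay between -0.30 (Mcm7, ± 0.10) and 0.14 (Kif23, ± 0.09). The smallest adjusted p was 0.12, for Mcm2 at -0.24 ± 0.08. Without replicate 1 of chow macrophages given high-fat RBC, which leaves 1 array in that group, Mcm7 was at -0.43. Bub1 read 4.71, 4.88, 4.96 and 4.76 in exposed high-fat macrophages, against 4.89, 4.80, 5.08 and 5.12 in exposed chow macrophages (-0.14 ± 0.09). The diet of the RBC donor made 0 calls as well: high-fat against chow RBC called 0 of 45 genes in limma, against 0.01% of all genes, with 2 at an unadjusted p below 0.05, against 3.15% of all genes. In high-fat and in chow macrophages alone limma called 0 each, against 0.0251% and 0% of all genes, with 1 each at an unadjusted p below 0.05, against 3.96% and 2.78% of all genes. The estimates lay between -0.23 (Tyms, ± 0.12) and 0.24 (Rrm2, ± 0.11), and their 95% intervals stayed between -0.49 and 0.46.

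Replication and mitosis genes were set against each other as 11 genes (Mcm2 to Mcm7, Pcna, Rrm1, Rrm2, Tyms and Cdc6) and 6 genes (Bub1, Cdk1, Plk1, Kif11, Kif20a and Kif23). Both groups moved the same way in chow macrophages given RBC, with medians of 0.51 and 0.73. There 7 of 11 and 6 of 6 genes rose, against 8.22% of all genes. The ranges overlapped widely, from -0.01 (Mcm5) to 0.93 (Rrm2) among replication genes and from 0.49 (Kif23) to 1.44 (Bub1) among mitosis genes. In high-fat macrophages the medians of the RBC response were 0.01 and 0.06. High-fat against chow macrophages without RBC gave medians of 0.50 and 0.55, with 6 of 11 and 6 of 6 genes higher, against 8.12% of all genes. The interaction gave -0.54 and -0.58, with 5 of 11 and 3 of 6 lower, against 3.1% of all genes. These shares of all genes apply to the wider groups below as well. With all genes of such roles counted, 7 of 14 replication and nucleotide genes and 23 of 28 mitosis genes rose with RBC in chow macrophages, with medians of 0.41 and 0.61. For high-fat against chow macrophages without RBC these wider groups had medians of 0.27 and 0.50, with 6 of 14 and 17 of 28 genes higher, so the replication median depended on which genes were counted. Genes that did not pass stood on both sides, among them Mcm5, Cdt1 and Tk1 of replication and nucleotide supply and Bub1b, Cdc20 and Aurkb of mitosis. These medians carry no test, and the genes of a group are not replicates.

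**Figure D5:**
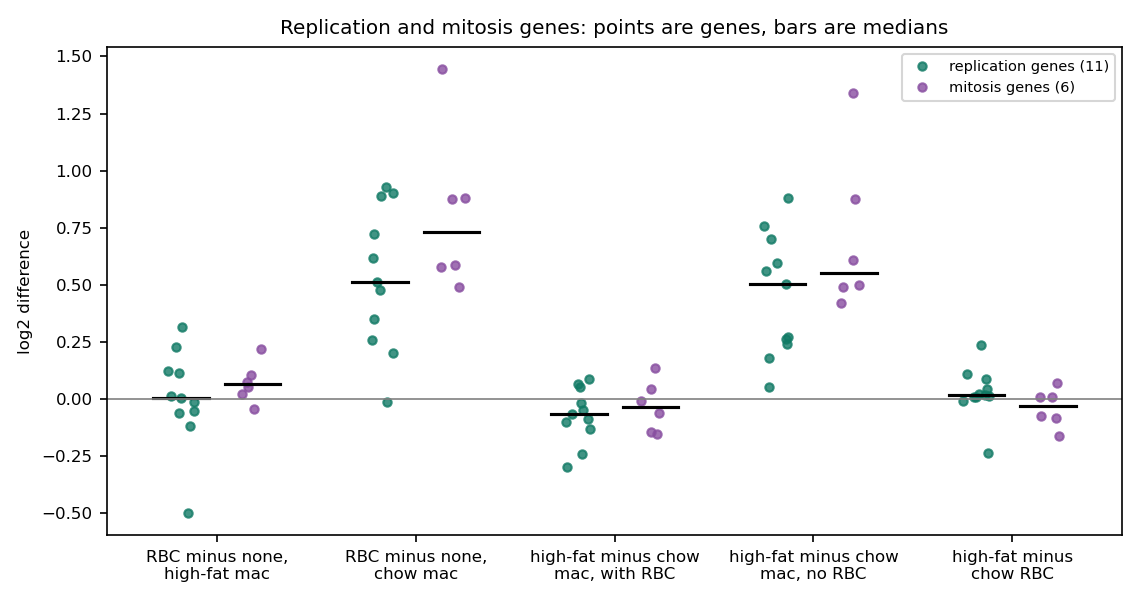
Log2 differences (y axis) of the 11 replication and 6 mitosis genes in 5 comparisons (x axis); points are genes and bars are medians. Both groups lie above 0 for RBC in chow macrophages (medians 0.51 and 0.73) and for high-fat against chow macrophages without RBC (0.50 and 0.55), and around 0 in the other 3 comparisons.

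Other genes of the same pathways, from lists that hold none of the 45, were read beside them. These lists too were chosen with earlier results of these data known, so they are not independent support. Over all genes, 8.22% rose and 4.51% fell with RBC in chow macrophages. Of 24 other replication genes 11 rose and 0 fell with RBC in chow macrophages, with a median of 0.29, among them the primase subunit Prim1 (0.85 ± 0.09), geminin (Gmnn, 0.63 ± 0.10), which blocks relicensing of origins, the dUTPase Dut (0.55 ± 0.11) and the clamp loader subunit Rfc3 (0.54 ± 0.10). Of 32 other mitosis genes 16 rose and 0 fell, with a median of 0.34, among them Cks2 (1.05 ± 0.10) and Cks1b (0.89 ± 0.10), small partners of Cdk1, the centromeric histone Cenpa (0.77 ± 0.09) and the spindle protein Hmmr (0.84 ± 0.10). In high-fat macrophages 0 of the 24 and 0 of the 32 passed with RBC, against the 1.08% of all genes called there. The interaction was lower for 3 of 24 (Prim1, Rfc3 and Pola1) and 8 of 32, against 3.1% of all genes. In high-fat against chow macrophages without RBC, 5 of 24 were higher and 1 lower (Orc6, an origin recognition subunit, -0.35 ± 0.10), and 10 of 32 were higher. Of all genes, 8.12% were higher and 5.82% lower there, and 2.2% were higher and 2.65% lower with RBC. With RBC, 1 of 24 was higher in high-fat macrophages, the maintenance methyltransferase Dnmt1 (0.33 ± 0.07), and 3 were lower, Orc6 (-0.50 ± 0.07), Prim1 (-0.37 ± 0.08) and Rfc3 (-0.37 ± 0.09).

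Genes that act upstream of S phase were read next. Over all genes, 8.22% rose and 4.51% fell with RBC in chow macrophages. Of 16 G1 cyclins, kinases and E2F factors, 1 rose and 2 fell with RBC in chow macrophages: cyclin D1 (Ccnd1) by 0.52 ± 0.13, and Cdk6 by 0.51 ± 0.11 and the repressor E2f8 by 0.32 ± 0.09. Of 13 inhibitors and pocket proteins, which hold cells out of the cycle, 4 rose and 0 fell: Rbl2 (p130) by 0.79 ± 0.11, Cdkn1b (p27) by 0.74 ± 0.13, Cdkn1c (p57) by 0.68 ± 0.08 and Cdkn2c (p18) by 0.56 ± 0.12. These 4 inhibitors thus had the same sign as most genes of the set. In high-fat against chow macrophages without RBC the same 4 inhibitors were higher, by 0.87 ± 0.13 for Rbl2 and 0.82 ± 0.15 for Cdkn1b. There 8.12% of all genes were higher. The interaction was lower for 3 of 13 (Cdkn1c, Cdkn1b and Rbl2), against 3.1% of all genes. Of 11 targets of p53, 4 rose and 4 fell with RBC in chow macrophages, with Sesn1 higher by 0.52 ± 0.09, and Gadd45b lower at -1.09 ± 0.19, Sesn2 at -0.64 ± 0.10 and Mdm2 at -0.56 ± 0.11. Of 7 genes of macrophage growth control, the growth factor Csf1 rose by 1.39 ± 0.09 (adjusted p = 1.7e-07), and its receptor Csf1r and the interleukin-4 receptor Il4ra fell by 0.41 ± 0.09 and 0.32 ± 0.08. Csf1 was also higher in high-fat than in chow macrophages without RBC (1.55 ± 0.10), and its interaction was -1.06 ± 0.12.

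Markers of other cell types, and of macrophages themselves, moved in some of these comparisons. Over all genes, 8.22% rose and 4.51% fell with RBC in chow macrophages, and 0.878% and 0.201% in high-fat macrophages. Without RBC, 8.12% of all genes were higher and 5.82% lower in high-fat macrophages, and 3.1% were lower in the interaction. Of 9 macrophage markers 2 rose and 2 fell with RBC in chow macrophages, led by Adgre1 (-0.68 ± 0.09), 2 rose and 0 fell in high-fat macrophages, led by Cd14 (1.41 ± 0.12), and 2 were higher and 4 lower in high-fat than in chow macrophages without RBC, led by Cd14 (-1.82 ± 0.14). Of 10 mesothelial and fibroblast markers 4 rose with RBC in chow macrophages, led by the collagens Col1a2 (0.80 ± 0.08) and Col1a1 (0.65 ± 0.09), while the mesothelial Msln (-0.13 ± 0.11) and Upk3b (0.09 ± 0.12) did not pass; 3 were higher in high-fat macrophages without RBC, led by Pdgfra (0.78 ± 0.10), and 4 were lower in the interaction. The sum of their linear signals was 967.9 to 1036 in exposed and 996.7 to 1058 in unexposed high-fat macrophages, and 1075 to 1151 in exposed against 813.8 to 829.2 in unexposed chow macrophages, an order like that of the cell cycle genes. Of 7 B cell markers 0 rose and 5 fell with RBC in chow macrophages, led by Ms4a1 (-0.91 ± 0.12), and 6 were lower in high-fat macrophages without RBC, led by Cd79a (-2.19 ± 0.17). Their sum ran the other way, 137.9 to 150.6 in exposed and 133.8 to 150.7 in unexposed high-fat macrophages, and 191.6 to 239.5 in exposed against 286.1 to 335.5 in unexposed chow macrophages. Of 11 neutrophil markers 5 rose in each diet, led by S100a9 (6.28 ± 0.12 in high-fat and 5.24 ± 0.12 in chow macrophages), and 1 fell in chow macrophages (Mmp9). The median over the 11 neutrophil markers was 0.47 in high-fat and 0.15 in chow macrophages, with 10 and 6 of the differences positive. Their sums were 2785 to 4681 in exposed against 1515 to 1720 in unexposed high-fat macrophages, and 3186 to 3805 in exposed against 1788 to 1931 in unexposed chow macrophages. Platelet markers rose for 4 of 7 in each diet, led by Ppbp (5.06 ± 0.26 in high-fat and 3.82 ± 0.26 in chow macrophages). Of 8 erythroid markers 1 rose in high-fat and 2 rose in chow macrophages, and 0 fell in either. In chow macrophages 3 of the 8 differences were positive and 5 negative, with a median of -0.14. The erythroid sums were 618.8 to 820.8 in exposed against 692.9 to 789.4 in unexposed high-fat macrophages. In chow macrophages they were lower with RBC, 889.8 to 940 in exposed against 984.2 to 1049 in unexposed arrays. A sum of linear signals weighs the brightest marker most, here Tfrc (mean log2 signal 9.24). The other erythroid markers had means between 4.01 and 5.64, so the erythroid sums mainly follow Tfrc and not the list. Granulocyte progenitor and T and NK cell markers were called for 0 of 6 and 0 of 8 with RBC in chow macrophages, against 12.7% of all genes. In lists this short, 0 calls do not show that these cells were absent. The part of these cells in the cell cycle values was not tested.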

How the data were processed

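RNA of the 12 samples was extracted with RNeasy columns, amplified with WTA-Ovation FFPE V2 and labelled with Encore biotin for Affymetrix Mouse Gene ST arrays, per the labels' protocols. The values are log2 signals per probe set as deposited by the authors; the log2 scale was read from the values, and the authors' background correction and normalization are not given in the sources used here. Raw intensities were not analysed here, and how far a signal stood above background cannot be given.

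Of 35556 probe sets with values, 23410 were listed in the platform annotation, 21789 with 1 gene symbol and 1621 with several; 12146 were unlisted and unnamed. The brightest probe set by mean over the groups stood for each of 19938 genes, 999 of which had several. Of 46 cell cycle genes 45 were measured. One mean per group was fitted over all 12 arrays with limma 3.58.1 (R 4.3.3) for 12 comparisons, with 6 residual degrees of freedom and 7.69 from the prior. Adjusted p-values are Benjamini-Hochberg over all genes, called below 0.05. The code of the fit was run on simulated data with independent noise for each gene and array. Such data lack variation shared between genes, so the run checks the code only. Figures and promoter searches used Python 3.11.15, pandas 2.3.3 and matplotlib 3.10.9.

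The genes and all lists were chosen with earlier results of these data known. Any of the 45 genes could be named, up to 4 genes per pathway list and comparison by smallest p, and up to 3 per marker list by size; Orc6 without RBC, Mmp9, Msln and Upk3b were named after their values were seen. Alternatives tried were quantile normalization, removal of dim genes, an intensity trend, array weights, replicate blocks, means over probe sets, the compared arrays alone, a looser threshold and leaving out each array. The crossed block and the fit without genes with several probe sets were chosen after seeing the data.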

Additional observations from a re-analysis of the deposited data

Results flagged for a closer look

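The response to RBC differed between high-fat and chow macrophages, by the test of the difference itself (interaction, limma, adjusted p below 0.05), for 18 of the 45 genes, all with a lower response in high-fat macrophages. The interaction, the log2 response of high-fat macrophages minus that of chow macrophages, was -1.49 for Bub1, -1.04 for Mad2l1, -0.99 for Top2a, -0.98 for Anln, -0.86 for Prc1, -0.85 for Cdc6, -0.83 for Cdk1 and -0.81 for Birc5. It was -0.79 for Rrm1, -0.77 for Tyms, -0.74 for Ccna2, -0.72 for Ndc80, -0.66 for Ccnb2, -0.65 for Ube2c, -0.65 for Plk1, -0.63 for Foxm1, -0.6 for Mcm4 and -0.5 for Mcm6. Groups of 2 arrays are too small for a test of single outlying arrays.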

How the results depend on the processing

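The count of genes that rose with RBC in chow macrophages lay between 29 and 33 under the other settings. It lay between 13 (array weights) and 23 for the interaction, and between 21 and 27 for high-fat against chow macrophages without RBC. Calls over all genes, in either direction, lay between 2420 and 3919, 835 and 1594, and 1777 and 3714 in the same order. The settings thus shifted the calls of all genes too. No call of a single gene changed direction. With RBC in high-fat macrophages the count of 0 became 1 at an adjusted p below 0.10 (336 of all genes called). It became 1 with the replicate block over all groups (213) and 2 with the replicate block within each diet (237). With chow RBC alone it became 1 at the 0.10 threshold (201 of all genes) and with quantile normalization (156). It also became 1 there with the intensity trend (201) and with the replicate block within each diet (141). With all genes of such roles counted, the median of replication genes was 0.41 for RBC in chow macrophages and 0.27 for high-fat against chow macrophages without RBC, where removing the dimmest genes gave 0.39, and that of mitosis genes for RBC in chow macrophages was 0.61; these differ by construction in the genes they hold. With each array left out in turn, counts lay between 21 and 31 for RBC in chow macrophages, 14 and 27 for high-fat RBC alone, 17 and 28 for chow RBC alone, 11 and 17 for the interaction and 16 and 24 for high-fat against chow macrophages without RBC. For RBC in high-fat macrophages they lay between 0 and 3, for each kind alone between 0 and 1, for high-fat against chow macrophages with RBC between 0 and 1, and for the diet of the RBC at 0. The medians of replication genes then lay between 0.42 and 0.61 for RBC in chow macrophages, -0.04 and 0.05 in high-fat macrophages, -0.60 and -0.46 for the interaction, 0.39 and 0.56 for the diets without RBC, -0.10 and 0.029 with RBC, and 0.01 and 0.07 for the diet of the RBC. Those of mitosis genes lay between 0.65 and 0.83, 0.0064 and 0.15, -0.67 and -0.49, 0.50 and 0.69, -0.09 and 0.01, and -0.09 and 0.02 in the same order. Replicate differences correlated at 0.344 between high-fat macrophages given high-fat RBC and none, at 0.138 between chow macrophages given chow RBC and none, and between -0.226 and 0.0673 for the other pairs of groups, so the numbers were taken as labels only; the replicate block gave 29 and 30 calls for RBC in chow macrophages, 18 and 22 for the interaction and 23 and 26 for the diets without RBC, over all groups and within each diet. As the 2 unexposed groups correlated at -0.135, the crossed pairing was fitted too, after seeing the data, and gave 24 calls between them. Leaving out an array left 1 in its group, and the number of calls over all genes shifted as well. The cause of these shifts was not tested. Depth does not apply to arrays, and signal over background is unknown.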
